A study of Mus musculus with 24 samples.

Results

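The 9 genes described here, Mbp, Mobp, Mog, Mag, Cnp, Opalin, Hapln2, Tmem88b and Plxnb3, encode proteins of myelin and of the oligodendrocytes that make it. They are 9 of the 30153 genes in the table and were chosen by their TPM in 4 mouse libraries labelled aged Hap-I against 4 labelled adult Hap-I, both without western diet, with the kidney libraries as background. The values of that contrast therefore describe the members and test nothing about them. TPM, a relative transcript abundance, divides reads by transcript length, so levels of different genes can be set side by side.

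The study asks how a western diet changes kidney transcripts of hypertensive mice in which human angiotensin receptor type 1 is overexpressed. Its 24 poly(A) libraries form 6 groups of 4, and the design text gives 4 animals to each. The groups were aged Hap-I mice on western diet, adult Hap-I mice on western diet, adult Hap-II mice on western diet, aged Hap-I mice, adult Hap-I mice and adult C57 mice. Hap-I and Hap-II are 2 haplotypes, which the labels do not describe further. The labels give the strain of every group as C57/BL6 and its tissue as kidney. They give no ages in weeks or months, no sex, no promoter for the transgene, no number of founder lines and no batch. That the last 3 groups received no western diet is read from labels that do not mention it.

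Myelin is the stack of membrane that oligodendrocytes wrap round axons of the central nervous system. Its inner faces are held together by basic proteins, its lipids are rich in galactosylceramide and cholesterol, and separate sets of adhesion proteins sit at its outer surface, at the face against the axon and beside the node of Ranvier. Oligodendrocytes arise from precursors that carry Pdgfra, pass through a stage marked by Gpr17 and Enpp6, and switch on the myelin genes under Sox10 and Myrf. The kidney has no central myelin, and most of its nerve fibres are unmyelinated.

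The 8 libraries labelled aged and adult Hap-I without western diet held brain transcripts in place of kidney ones. Snap25, a synaptic fusion protein, lay between 1662 and 2269 TPM in them and at 1.502 TPM or less in the other 16. Umod, the protein of the thick ascending limb, was at 3.47 TPM or less in the 8 and between 20.2 and 2484 TPM in the 16. A sum over 12 nephron markers came to between 16.2 and 118.0 TPM in aged and between 3.40 and 12.9 TPM in adult brain-like libraries, against 8267 TPM or more in each of the 16. The comparison by age without diet is thus a comparison of brain transcripts, and its libraries are not set against the kidney groups in any test. These 8 libraries are called brain-like below.

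The brain-like libraries differed in markers of brain regions. Adult library 4 stood apart in 6 striatal markers, whose summed level was 941 TPM, against 87.8 to 93.1 TPM in the other adult and 73.2 to 149 TPM in the aged libraries. Adult library 2 stood apart in 9 choroid plexus and ependyma markers, at 5602 TPM against 25.6 to 436 TPM in the other adult libraries, and aged library 4 held 964 TPM of the same list against 58.3 to 124 TPM in the other aged ones. The summed level of 7 cortex and hippocampus markers was 277.8 to 335 TPM in aged, against 189.9 to 277.9 TPM in adult libraries. All 7 had a higher mean in aged ones, as did 72.9 percent of all genes tested. The log2 differences of the 7 ran from 0.03 to 0.97, with a median of 0.12 beside 0.12 over all genes tested. The part of these region markers in the members' values was not tested. Transcripts of the mitochondrial genome took 11.3 to 22.5 percent of TPM in aged, against 13.2 to 26.4 percent in adult libraries. The members' differences are also given without adult libraries 2 and 4.

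Promoter windows are shown first, as sequence background on the members. Their part in the members' values was not tested. RefSeq windows (GRCm38.p6) of 250 bases before a transcription start were available for 8 of the 9 genes. The 4 members with the largest differences by age and Mobp and Cnp are printed 5′ to 3′ on the strand of the gene. Capitals mark matches on either strand to a SOX core, ACAAAG, or a MYRF core, CTGGNAC, and no matches overlapped.
Opalin, chr19:41077114-41077363, minus strand: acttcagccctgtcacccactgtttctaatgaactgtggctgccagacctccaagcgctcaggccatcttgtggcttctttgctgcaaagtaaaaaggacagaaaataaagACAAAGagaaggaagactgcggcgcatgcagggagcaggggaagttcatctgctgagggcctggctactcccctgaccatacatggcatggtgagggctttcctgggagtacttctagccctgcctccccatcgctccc
Hapln2, chr3:88027512-88027761, minus strand: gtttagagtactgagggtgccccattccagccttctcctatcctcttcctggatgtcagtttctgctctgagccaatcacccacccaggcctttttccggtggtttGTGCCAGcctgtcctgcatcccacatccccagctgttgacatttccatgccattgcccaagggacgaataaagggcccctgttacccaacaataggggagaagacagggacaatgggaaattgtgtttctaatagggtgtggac
Tmem88b, chr4:155785875-155786124, minus strand: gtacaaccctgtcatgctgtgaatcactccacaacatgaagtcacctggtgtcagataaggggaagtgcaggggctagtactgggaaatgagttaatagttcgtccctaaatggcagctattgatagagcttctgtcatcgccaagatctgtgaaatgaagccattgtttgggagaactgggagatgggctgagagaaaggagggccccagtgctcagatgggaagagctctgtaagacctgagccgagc
Plxnb3, chrX:73756853-73757102, plus strand: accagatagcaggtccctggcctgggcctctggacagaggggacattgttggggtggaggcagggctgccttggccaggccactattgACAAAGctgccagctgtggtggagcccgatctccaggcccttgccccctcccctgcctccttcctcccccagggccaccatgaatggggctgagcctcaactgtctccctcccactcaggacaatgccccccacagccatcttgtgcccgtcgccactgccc
Mobp, chr9:120149492-120149741, plus strand: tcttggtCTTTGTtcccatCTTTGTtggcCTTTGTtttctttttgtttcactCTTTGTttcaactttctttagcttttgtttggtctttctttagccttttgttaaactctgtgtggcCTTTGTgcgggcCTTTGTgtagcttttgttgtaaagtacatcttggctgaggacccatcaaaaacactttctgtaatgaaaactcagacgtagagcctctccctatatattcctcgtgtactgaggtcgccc
Cnp, chr11:100574689-100574938, plus strand: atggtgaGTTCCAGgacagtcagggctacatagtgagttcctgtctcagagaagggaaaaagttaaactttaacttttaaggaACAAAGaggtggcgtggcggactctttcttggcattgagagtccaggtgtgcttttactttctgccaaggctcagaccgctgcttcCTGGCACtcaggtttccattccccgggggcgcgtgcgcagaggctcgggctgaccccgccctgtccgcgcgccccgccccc
Mobp had 6 SOX core matches in its window, against 1 each in Opalin, Plxnb3 and Cnp, and Cnp had 2 MYRF core matches. Hapln2 and Mog had 1 MYRF core match each, and Mag had up to 2, with up to 1 SOX core match, in a window. The Mobp window held 40.8 percent G and C, the lowest of the members' windows. At least 1 SOX core match was found in 5 of the 8 genes and in 16.5 percent of 32536 windows of the same length, and a MYRF core match in 4 of 8 genes and 15.9 percent of windows. An E-box, CANNTG, was found in 6 of 8 genes and 66.2 percent of windows, and TATAAA in 0 of 8 genes and 12.3 percent of windows. Mag has 3 windows, which gives it more chances of a match than a gene with 1. A match is letters in a window and shows no binding.

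Among the structural proteins of compact myelin, Mbp and Mobp were by far the most abundant members. Mbp, the basic protein that draws the inner faces of the myelin membrane together (ENSMUSG00000041607, GRCm38 chromosome 18, 82475146 to 82585637), stood at 2153, 1942, 2579 and 2703 TPM in aged libraries 1 to 4, against 2026, 1490, 1698 and 1286 TPM in adult libraries 1 to 4. Adult library 1 was the only adult library within the aged range, above aged library 2. The mean was 2344 ± 357 TPM in aged, against 1625 ± 316 TPM in adult libraries (SD, n = 4 each), a ratio of 1.44. The difference in log2(TPM + 1), aged minus adult, was 0.54, and it was 0.32 without adult libraries 2 and 4.

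Mobp, a small basic protein on the cytoplasmic side of central myelin (ENSMUSG00000032517, chromosome 9, 120149707 to 120181484), stood at 711, 718, 888 and 789.5 TPM in aged libraries, against 509, 486, 735 and 490.1 TPM in adult libraries. The groups overlapped through adult library 3 alone, which lay above aged libraries 1 and 2. The log2 difference was 0.50, and 0.34 without adult libraries 2 and 4. Mbp alone made up 62.5 percent of the TPM of the 9 members in aged and 62.8 percent in adult libraries, and Mbp and Mobp together made up 83.2 percent in aged and 84.3 percent in adult libraries.

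Cnp, a cyclic nucleotide phosphodiesterase of the non-compacted cytoplasm of myelin (ENSMUSG00000006782, chromosome 11, 100574904 to 100591729), stood at 230.2, 216, 291 and 307 TPM in aged, against 209, 177, 189 and 161 TPM in adult libraries. Every aged library was above every adult one, with a ratio of means of 1.42 and a log2 difference of 0.49, the smallest of the 9. By ratio of means Mobp was lower, at 1.40. Cnp lies across 8912 bases of the opposite-strand gene Dnajc7, which averaged 53.7 TPM in the brain-like libraries. The library kit keeps strand per the labels, but no source used here says whether counting used strand.

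The adhesion proteins Mag and Mog mark the inner and outer surfaces of the sheath. Mag, a sialic acid binding lectin on the membrane that faces the axon (ENSMUSG00000036634, chromosome 7, 30899176 to 30914873), stood at 160.3, 144, 221 and 229 TPM in aged, against 129.8, 126, 109 and 93.2 TPM in adult libraries. Mog, an immunoglobulin-fold protein of the outermost lamella and a known autoantigen (ENSMUSG00000076439, chromosome 17, 37010743 to 37023398), stood at 75.3, 77.3, 109 and 89.6 TPM in aged, against 57.4, 63.3, 65.8 and 48.9 TPM in adult libraries. Neither gene's groups overlapped, and the log2 differences were 0.70 for Mag and 0.56 for Mog. The gap was narrow for Mag, where the lowest aged library stood at 144 TPM and the highest adult library at 129.8 TPM. It was also narrow for Cnp (216 and 209 TPM), Hapln2 (9.66 and 8.80 TPM) and Opalin (17.9 and 16.01 TPM).

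The 4 less abundant members had the 4 largest log2 differences. Opalin, a glycoprotein of oligodendrocyte membranes enriched at the paranodal loops (ENSMUSG00000050121, chromosome 19, 41061710 to 41077113), stood at 24.4, 17.9, 31.5 and 24.4 TPM in aged, against 16.01, 12.8, 13.6 and 9.95 TPM in adult libraries. Hapln2, a link protein that ties hyaluronan to proteoglycans round the node of Ranvier (ENSMUSG00000004894, chromosome 3, 88021750 to 88027583), stood at 11.6, 9.66, 15.7 and 20.3 TPM in aged, against 8.80, 8.23, 7.19 and 5.07 TPM in adult libraries. The aged libraries lay above the adult ones for both genes, with ratios of means of 1.87 and 1.96 and log2 differences of 0.85 each.

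Tmem88b, a predicted membrane protein (ENSMUSG00000073680, chromosome 4, 155781591 to 155785874), stood at 41.1, 44.2, 48.2 and 41.9 TPM in aged, against 20.2, 29.2, 28.8 and 18.2 TPM in adult libraries. Its log2 difference of 0.87 was the largest of the 9, but its ratio of means, 1.82, was below those of Opalin, Hapln2 and Plxnb3. The lowest aged library was well clear of the highest adult library. Plxnb3, the plexin receptor for the guidance protein Sema5a (ENSMUSG00000031385, chromosome X, 73757090 to 73772514), stood at 9.75, 8.69, 10.8 and 10.7 TPM in aged, against 4.92, 6.83, 4.98 and 4.22 TPM in adult libraries. The aged libraries again lay above all adult ones, with a ratio of means of 1.91 and a log2 difference of 0.83. On this scale the added 1 shrinks differences of genes near 10 TPM, so those of Hapln2 and Plxnb3 are understated more than that of Mbp.

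**Figure D1:**
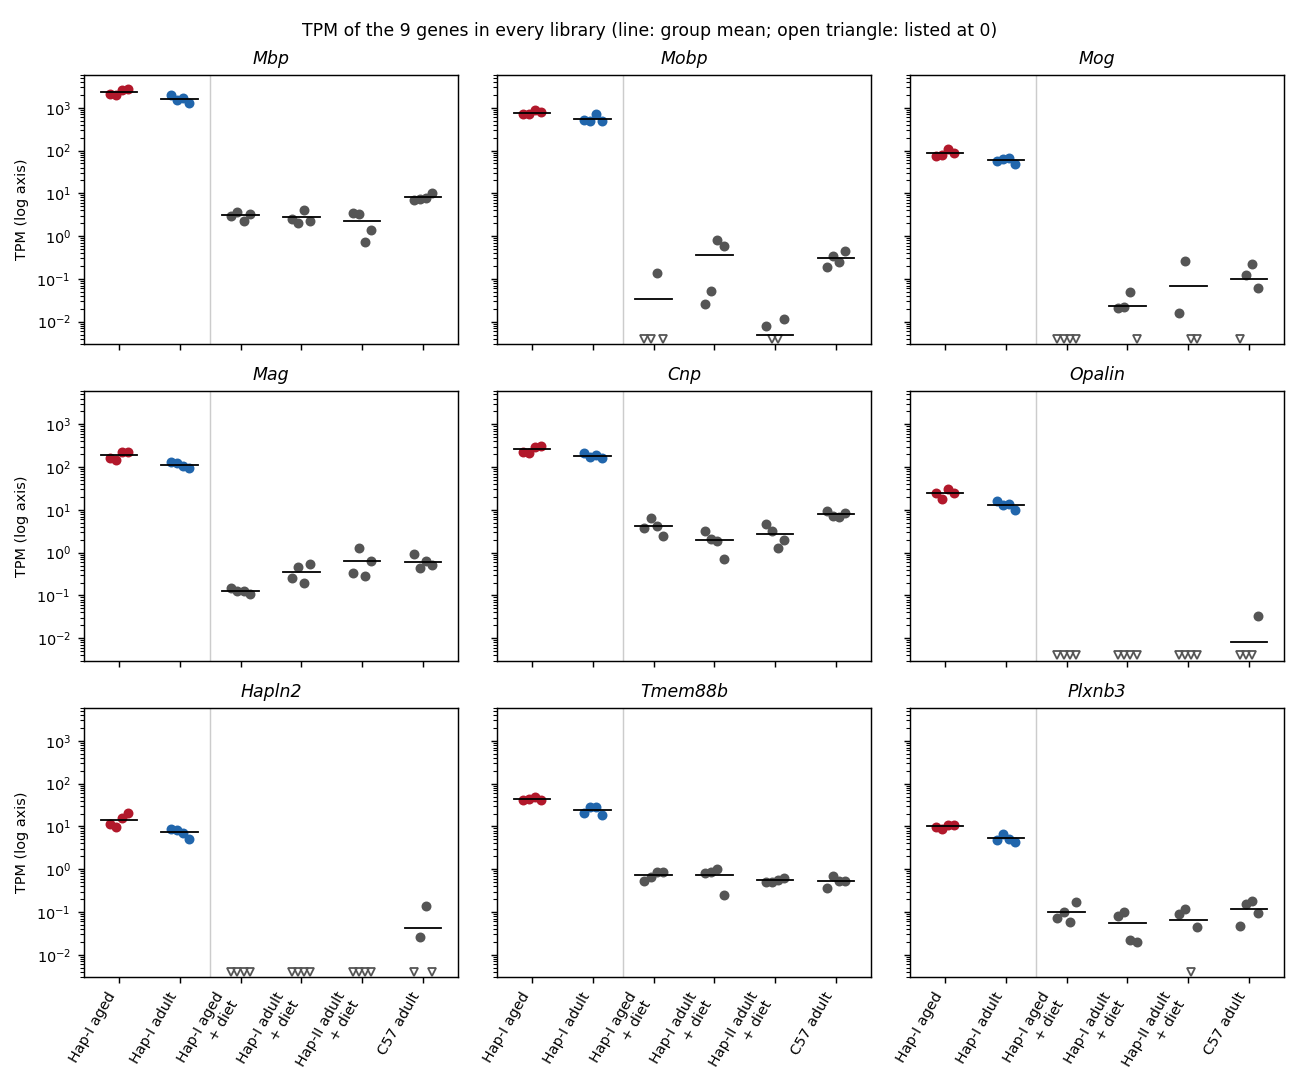
TPM of each of the 9 genes (log axis) in every library of the 6 groups, with 1 point per library, a line at the group mean and an open triangle where a gene is listed at 0. The aged brain-like libraries (red) lie above the adult ones (blue) without overlap in 7 of 9 panels, and the 16 kidney libraries (grey) lie below the brain-like ones in every panel and are highest for Mbp and Cnp, which reach 10.3 and 9.64 TPM.

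Across the 9 members the sum was 3417, 3178, 4194 and 4215 TPM in aged libraries, against 2981, 2399, 2851 and 2117 TPM in adult libraries. Every aged sum lay above every adult sum, and the means were 3751 ± 533 TPM in aged and 2587 ± 401 TPM in adult libraries (SD, n = 4 each). Of the 9 genes, 7 had no overlap between age groups with aged higher, where 10.5 percent of all 13497 genes tested did. This count restates how the members were chosen. The median log2 difference of the 9 was 0.70 and the range 0.49 to 0.87, beside a median of 0.12 over all genes tested. Without adult libraries 2 and 4 the median was 0.63, and its excess over all genes was 0.45 instead of 0.58. The single differences were then 0.49 for Mog, 0.63 for Mag, 0.38 for Cnp, 0.67 for Opalin, 0.72 for Hapln2, 0.83 for Tmem88b and 0.88 for Plxnb3. These are bulk libraries, in which more oligodendrocytes or more tissue rich in them cannot be told apart from more of these transcripts per cell.

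The order of levels was the same in both age groups: Mbp, Mobp, Cnp, Mag, Mog, Tmem88b, Opalin, Hapln2 and Plxnb3. In aged libraries the ranges of Cnp and Mag overlapped, as did those of Opalin and Hapln2 and those of Hapln2 and Plxnb3. In adult libraries only Hapln2 and Plxnb3 had overlapping ranges among neighbours in that order.

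Libraries of the same age also differed from each other in a shared way. Aged libraries 3 and 4 lay above their group's mean in log2(TPM + 1) for 9 and 8 of the 9 genes, and aged libraries 1 and 2 for 1 gene each. Adult library 4 lay below its group's mean for all 9 genes and was the lowest adult library for 8 of them. It is also the library with the striatal transcripts, whose part in its low myelin values was not tested. A sum over 6 cerebellum markers stood at 6.09, 8.45, 13.5 and 14.8 TPM in aged libraries 1 to 4. That of 7 cortex and hippocampus markers stood at 335, 320, 278 and 282 TPM there. For 8 hypothalamus and midbrain markers the sum was 11.8 TPM in aged library 4, against 2.93 to 4.43 TPM in the other aged libraries. The part of these markers in the myelin values was not tested. Aged libraries 3 and 4 held 12.2 and 11.3 percent mitochondrial transcripts and aged libraries 1 and 2 held 16.7 and 22.5 percent, so the higher myelin values went with the lower mitochondrial share there. Adult library 4, low in myelin genes, had 13.2 percent.

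**Figure D2:**
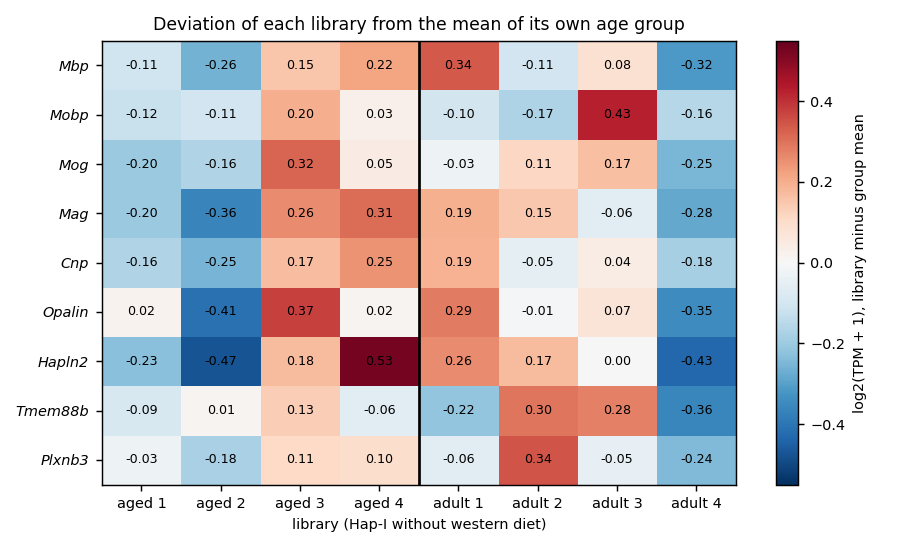
Deviation of each brain-like library from the mean of its own age group, in log2(TPM + 1), for the 9 genes (rows) in 4 aged and 4 adult libraries (columns), with the value in each cell. Aged libraries 3 and 4 are mostly positive, and adult library 4 is negative in all 9 rows.

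After removal of the group means, all 36 pairs of members correlated positively over the 8 libraries, beside 64.4 percent of all pairs among 10449 other genes of at least 5 TPM. The points of every pair are the same 8 libraries. The median Pearson correlation was 0.67, the highest was 0.97 between Mag and Hapln2, and the lowest was 0.05 between Mobp and Plxnb3. The 8 lowest correlations all involved Mobp or Tmem88b. Mobp correlated with Mag at 0.25 and with Hapln2 at 0.27, and Tmem88b correlated with Mbp at 0.12 and with Cnp at 0.13. Tmem88b and Plxnb3 were highest among adult libraries in library 2, and Mobp in library 3.

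The genes outside the 9 whose deviations most resembled the members' mean deviation were ranked over 10449 genes and these 8 libraries. They were Tmem178 (Pearson r of 0.97), Plekho2 (0.96), Cdc42ep2 (0.95), Ankzf1 (0.95), Adssl1 (0.95), Iglon5 (0.94), Plekhb1 (0.94) and Slc17a6 (0.94). Only Plekhb1 is on one of the oligodendrocyte lists. The highest of 10449 correlations over 8 libraries are high by selection, and how high they would run by chance was not tested. Slc17a6, the vesicular glutamate transporter of thalamic and brainstem neurons, stood at 10.2 ± 4.60 TPM in aged, against 7.41 ± 2.49 TPM in adult libraries (SD, n = 4 each), and Tmem178 averaged 80.1 TPM in aged, against 74.0 TPM in adult libraries.

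Other genes of the lineage were read from 6 lists of 91 symbols, of which 89 are in the table and 88 passed the filter of at least 1 TPM in at least 4 libraries. None of the 88 passed an adjusted p of 0.05 in limma, where 4 of 13497 genes did (0.0296 percent: Fbxw15, Gm11874, Gm16867 and Entpd4, all higher in aged and none on the lists). At an unadjusted p under 0.05 there were 44 higher and 1 lower among the 88, a share of 51.1 percent, beside 2081 of 13497 genes, or 15.4 percent. The lists were chosen with earlier results of these data known, and all 88 genes were read over the same 8 libraries. The share is therefore a description and no test of the lineage. The median log2 difference of the 88 was 0.38 beside 0.12 over all genes. A higher mean in aged libraries was found in 76 of the 88, beside 72.9 percent of all genes tested, and the counts of direction for each list below are to be read against that share.

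Of 18 other genes of myelin structure, all 18 had a higher mean in aged libraries, 10 of them without overlap (10.5 percent of all genes), and the median log2 difference was 0.43. Plekhb1 stood at 401 ± 45.3 TPM in aged, against 273 ± 30.9 TPM in adult libraries (SD, n = 4 each, adjusted p = 0.159 in limma), and Tppp, a tubulin-binding protein of oligodendrocytes, at 281 ± 6.69 TPM in aged, against 225 ± 23.8 TPM in adult libraries (adjusted p = 0.232). Neither passed the test, though neither had overlapping groups. Ermn, a cytoskeletal protein of late myelination named after its values were seen, stood at 45.7 ± 4.53 TPM in aged, against 27.6 ± 6.49 TPM in adult libraries. The smallest differences were those of the deacetylase Sirt2 and of the axonal growth inhibitor Omg, at 0.15 and 0.17, with overlapping groups in both.

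The 9 enzymes of myelin lipid synthesis had a median difference of 0.38, and all 9 means were higher in aged libraries. The 3 with the most transcript were Degs1, the ceramide desaturase, at 92.5 ± 3.83 TPM in aged, against 81.1 ± 7.92 TPM in adult libraries, Cers2, which makes very long chain ceramides, at 62.7 ± 5.04 TPM in aged, against 46.3 ± 5.49 TPM in adult libraries, and Fa2h, the fatty acid hydroxylase of myelin galactolipids, at 30.6 ± 3.33 TPM in aged, against 20.8 ± 3.601 TPM in adult libraries. Their adjusted p in limma were 0.378, 0.211 and 0.211. Aspa, the oligodendrocyte enzyme that frees acetate from N-acetylaspartate and was named after its values were seen, stood at 26.4 ± 1.65 TPM in aged, against 13.7 ± 3.67 TPM in adult libraries, with a log2 difference of 0.93 and an adjusted p of 0.139.

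Among 26 tested markers of mature oligodendrocytes, 25 had a higher mean in aged libraries, 16 without overlap, and the median difference was 0.58. Trf, the iron carrier transferrin, stood at 503 ± 95.2 TPM in aged, against 333 ± 36.3 TPM in adult libraries (adjusted p = 0.208 in limma). Apod, a lipid-binding lipocalin, had 310.5 ± 50.01 TPM in aged, against 237 ± 28.4 TPM in adult libraries (adjusted p = 0.249). Enpp2, the secreted enzyme autotaxin, was the exception in direction, with 189 ± 58.0 TPM in aged, against 347 ± 470 TPM in adult libraries and a log2 difference of -0.09. Choroid plexus also makes Enpp2, and its adult values ran from 95.2 to 1052 TPM.

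Earlier stages of the lineage were read from their own lists. Of 14 precursor genes, 6 had a higher mean in aged libraries, none was free of overlap, none had an unadjusted p under 0.05, and the median difference was -0.08. Pdgfra, the growth factor receptor of precursors, stood at 17.1 ± 0.207 TPM in aged, against 18.4 ± 4.12 TPM in adult libraries, and the receptor phosphatase Ptprz1 at 27.1 ± 2.06 TPM in aged, against 24.8 ± 6.62 TPM in adult libraries. The summed level of the 14 was 127 to 145 TPM in aged, against 123 to 169 TPM in adult libraries, and the groups overlapped. The difference between the precursor and myelin lists was itself not tested.

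Of 10 tested genes of newly formed oligodendrocytes, 8 had a higher mean in aged libraries, near the 72.9 percent of all genes, and the median difference was 0.06. The receptor Gpr17, which marks cells on the way to myelination, stood at 18.7 ± 2.33 TPM in aged, against 24.3 ± 2.71 TPM in adult libraries, with a log2 difference of -0.36 ± 0.13 (SE, adjusted p = 0.245 in limma). All aged libraries lay below all adult ones for Gpr17, as they did for 0.615 percent of genes tested. Enpp6, a choline phosphodiesterase placed in the same list and named after its values were seen, lay the other way at 6.38 ± 0.982 TPM in aged, against 3.70 ± 0.386 TPM in adult libraries (adjusted p = 0.154). In this list 1 gene had no overlap with aged lower and 1 had no overlap with aged higher, as 10.5 percent of genes tested did.

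Among 11 transcription factors of the lineage, 10 had a higher mean in aged libraries and the median difference was 0.32. Myrf, the factor that switches on myelin genes in maturing cells, stood at 27.5 ± 5.10 TPM in aged, against 16.2 ± 1.95 TPM in adult libraries without overlap, a difference of 0.72 ± 0.15 (SE, adjusted p = 0.154 in limma). Olig1, Olig2 and Sox8, present from precursor to mature cell, had small differences. Olig1 stood at 47.9 ± 8.24 TPM in aged, against 44.9 ± 5.05 TPM in adult libraries. Sox8 had 19.0 ± 2.62 TPM in aged, against 18.0 ± 1.10 TPM in adult libraries, and Olig2, named after its values were seen, had 12.3 ± 3.09 TPM in aged, against 12.9 ± 1.16 TPM in adult libraries.

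**Figure D3:**
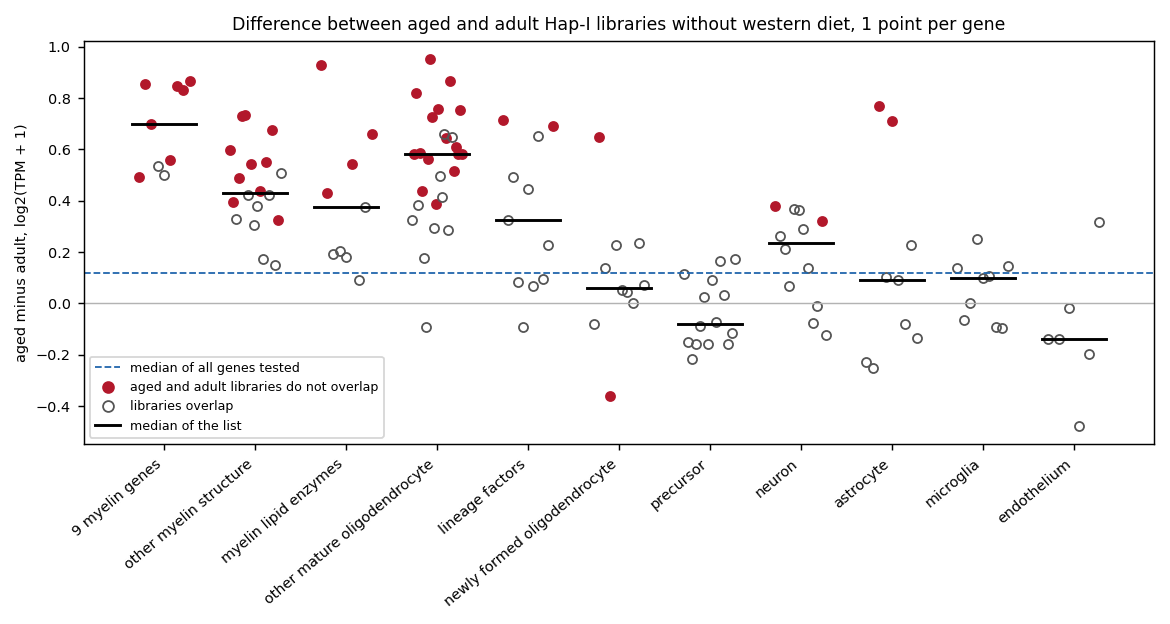
Difference between aged and adult brain-like libraries in log2(TPM + 1) for each gene (1 point) of the 9 members and of lists of other oligodendrocyte, neuron, astrocyte, microglia and endothelium genes, with a bar at each list's median and a dashed line at the median of all genes tested (0.12). Filled points had no overlap between the 4 aged and 4 adult libraries. List medians run from 0.70 in the members and 0.58 in other mature oligodendrocyte genes to -0.08 in precursor and -0.14 in endothelium genes.

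Markers of other brain cells were read beside the members. The summed level of 12 neuron markers was 7501 to 8030 TPM in aged, against 6487 to 7259 TPM in adult libraries, which did not overlap, with a median log2 difference of 0.24 over the 12 genes. That of 9 astrocyte markers was 2379 to 2654 TPM in aged, against 2303 to 2756 TPM in adult libraries, with a median of 0.09. Of these 9 genes, 5 had a higher mean in aged libraries, beside 72.9 percent of all genes tested. Their differences ran from -0.25 to 0.77. Within that list the filament protein Gfap, named after its values were seen, stood at 285.5 ± 28.5 TPM in aged, against 179 ± 50.7 TPM in adult libraries without overlap (log2 difference 0.71, adjusted p = 0.211 in limma). Microglia and endothelium lists had medians of 0.10 and -0.14, and no gene of these 4 lists passed an adjusted p of 0.05. The part of these cell types in the members' values was not tested.

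Partners of individual members were also read. Sema5a, the ligand of Plxnb3, named after its values were seen, stood at 27.5 ± 5.17 TPM in aged, against 13.97 ± 6.56 TPM in adult libraries, a log2 difference of 1.01 with overlapping groups (adjusted p = 0.211 in limma). This was the largest difference among 8 tested genes of the plexin list. Of these, 4 had a higher mean in aged libraries, beside 72.9 percent of all genes tested, and the median difference was 0.03. The other plexins of the family, Plxnb1 and Plxnb2, had differences of -0.02 and -0.22. Hapln4, the link protein of perineuronal nets and nodes, stood at 70.9 ± 9.84 TPM in aged, against 52.9 ± 5.07 TPM in adult libraries (adjusted p = 0.222 in limma). Hapln1, named after its values were seen, had 7.05 ± 1.19 TPM in aged, against 8.34 ± 2.60 TPM in adult libraries.

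**Figure D4:**
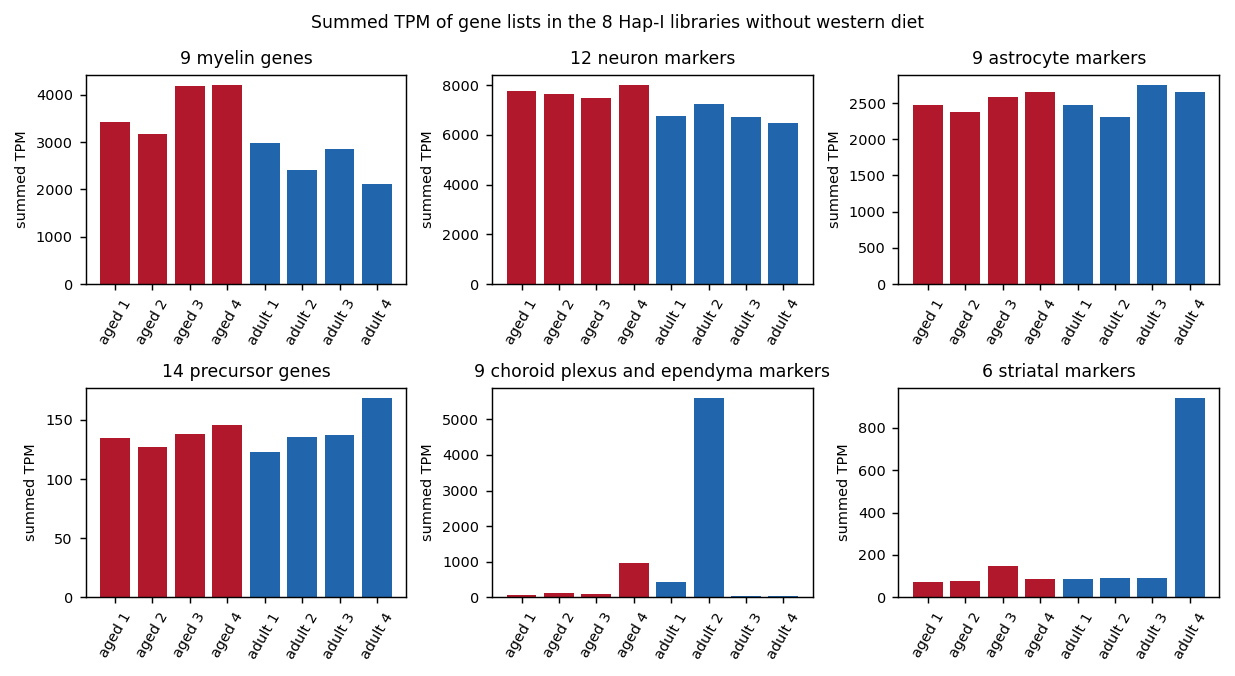
Summed TPM of 6 gene lists in each of the 4 aged (red) and 4 adult (blue) brain-like libraries, each panel with its own axis from 0. The 9 myelin genes total 3178 to 4215 TPM in aged, against 2117 to 2981 TPM in adult libraries, precursor genes overlap, and single libraries stand out for choroid plexus and ependyma (adult 2, 5602 TPM) and striatal markers (adult 4, 941 TPM).

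In the 16 kidney libraries the 9 members summed to 8.25 ± 1.91 TPM in aged Hap-I on diet, 6.23 ± 1.53 TPM in adult Hap-I on diet, 6.35 ± 3.06 TPM in adult Hap-II on diet and 17.9 ± 1.92 TPM in C57 adults (SD, n = 4 each). Mbp and Cnp were the only members that passed the filter, and they alone could be tested. Opalin was listed at 0 in all 12 libraries on diet and in 3 of 4 C57 libraries, and Hapln2 in all 12 on diet. Mobp reached at most 0.833 TPM, Mog 0.263 TPM, Mag 1.31 TPM, Tmem88b 0.996 TPM and Plxnb3 0.179 TPM in any kidney library.

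The members kept unequal shares of their brain-like level in kidney. In C57 adults the mean was 0.410 percent of the brain-like mean for Mbp, 3.596 percent for Cnp, 1.56 percent for Tmem88b and 1.54 percent for Plxnb3, but 0.0460 percent for Mobp and 0.0432 percent for Opalin. The 12 neuron markers had shares between 0.0346 and 0.826 percent in the same libraries, with a median of 0.110 percent. Cnp, Tmem88b and Plxnb3 thus lay above all 12 neuron markers, and the other members lay within their range. The C57 means were only 0.528 TPM for Tmem88b and 0.118 TPM for Plxnb3, below the 1 TPM of the filter. Their places in this ranking are therefore uncertain.

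For age on western diet, Mbp stood at 3.01, 3.67, 2.27 and 3.25 TPM in aged Hap-I kidneys, against 2.54, 2.07, 3.99 and 2.32 TPM in adult Hap-I kidneys. The groups overlapped, and the log2 difference was 0.13 ± 0.29 (SE, adjusted p = 0.787 in limma). Cnp stood at 3.73, 6.52, 4.17 and 2.44 TPM in aged Hap-I kidneys, against 3.13, 2.10, 1.88 and 0.725 TPM in adult Hap-I kidneys, with a log2 difference of 0.83 ± 0.32 (SE, adjusted p = 0.242). Only the highest adult library reached into the aged range. In that comparison 4 of 12923 genes passed (0.031 percent), and the median log2 difference of all genes was 0.32. With libraries weighted by their quality Cnp passed (adjusted p = 0.0345), as did 2199 genes. After median-of-ratios rescaling the difference was -0.17 for Mbp and 0.58 for Cnp, and after quantile normalization it was -0.25 for Mbp and 0.46 for Cnp. Over 19 alternatives it ran from -0.25 to 0.28 for Mbp and from 0.46 to 1.14 for Cnp. Eif2s3y, a Y-linked gene, was at 5 TPM or more in 2 of 4 aged and 3 of 4 adult Hap-I libraries, and with it as a covariate the differences were 0.02 for Mbp and 0.65 for Cnp.

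For haplotype on western diet, Mbp had the 2.54, 2.07, 3.99 and 2.32 TPM given above in adult Hap-I kidneys, against 3.52, 3.31, 0.726 and 1.41 TPM in adult Hap-II kidneys, a log2 difference, Hap-I minus Hap-II, of 0.29 ± 0.29 (SE, adjusted p = 0.817 in limma). Cnp averaged 1.96 ± 0.988 TPM in Hap-I, against 2.78 ± 1.47 TPM in Hap-II kidneys (SD, n = 4 each), a difference of -0.34 ± 0.32 (SE, adjusted p = 0.817). Neither gene passed, where 10 of 12923 genes did (0.0774 percent). Over 19 alternatives the difference ran from 0.02, without Hap-II library 3, to 0.56 for Mbp and from -0.55, also without Hap-II library 3, to -0.08 for Cnp. Hap-II libraries 3 and 4, the lowest for both genes, had Eif2s3y at 22.3 and 27.8 TPM, and Hap-II libraries 1 and 2 at 0 and 0.336 TPM. With Eif2s3y as a covariate the differences were 0.40 for Mbp and -0.16 for Cnp.

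Against C57 adults, both genes were lower in adult Hap-I kidneys on diet. Mbp stood at 2.54, 2.07, 3.99 and 2.32 TPM in Hap-I, against 7.06, 7.57, 7.65 and 10.3 TPM in C57 kidneys, and Cnp at 3.13, 2.10, 1.88 and 0.725 TPM in Hap-I, against 9.64, 7.03, 6.86 and 8.49 TPM in C57 kidneys. Mitochondrial transcripts took 25.0 to 34.7 percent of TPM in these Hap-I libraries, against 12.4 to 16.9 percent in C57 libraries. No library overlapped for either gene. The log2 differences were -1.31 ± 0.29 for Mbp (SE, adjusted p = 0.0023 in limma) and -1.66 ± 0.32 for Cnp (adjusted p = 0.00141). With mitochondrially encoded genes removed they were -1.13 for Mbp (adjusted p = 0.0107) and -1.52 for Cnp (adjusted p = 0.0054), beside a median of -0.60 over all genes.

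In the same comparison 59.7 percent of all 12923 genes passed with lower values in Hap-I, 55.3 percent had no overlap with Hap-I lower, and the median of all genes was -0.80. All genes called split into 294 higher and 7715 lower on the TPM scale, against 2173 higher and 1882 lower after median-of-ratios rescaling and 2017 higher and 1893 lower after quantile normalization. After median-of-ratios rescaling, when the median of all genes was -0.02, Mbp was at -0.49 (adjusted p = 0.123 in limma) and no longer passed, and Cnp was at -0.92 (adjusted p = 0.00744). After quantile normalization the values were -0.36 (adjusted p = 0.264) and -0.75 (adjusted p = 0.0114). The 2 groups also differ in transgene, in diet and in Eif2s3y, at 5 TPM or more in 3 of 4 Hap-I and 0 of 4 C57 libraries, and these cannot be told apart. The 12 neuron markers summed to 4.14 ± 1.38 TPM in these Hap-I kidneys, against 15.2 ± 1.88 TPM in C57 kidneys (SD, n = 4 each). Sample titles of the C57 libraries carry the letter S, as those of the brain-like libraries do, and those of these Hap-I libraries the letter A. The part of brain transcripts in the C57 values was not tested. With Eif2s3y as a covariate the differences were -0.96 for Mbp (adjusted p = 0.0354 in limma) and -1.13 for Cnp (adjusted p = 0.0209). All 3 kidney comparisons share the adult Hap-I libraries on diet.

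**Figure D5:**
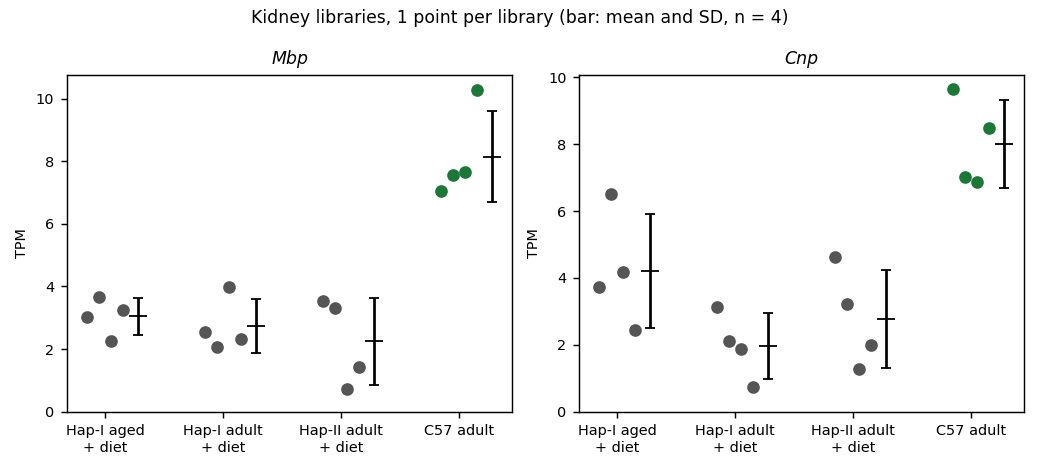
TPM of Mbp and Cnp in each of the 16 kidney libraries by group, with 1 point per library and the mean and SD (n = 4) beside them, on linear axes from 0. C57 adults (green) lie between 7.06 and 10.3 TPM for Mbp and between 6.86 and 9.64 TPM for Cnp, above all 12 libraries on western diet (grey).

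Other genes of the lineage lists were mostly lower in adult Hap-I kidneys on diet too, as most genes were. Of 53 list genes tested, 34 passed with lower and 0 with higher values in Hap-I, and the median difference of the 53 was -0.85 beside -0.80 over all genes. Trf stood at 22.4 ± 15.6 TPM in Hap-I, against 124 ± 52.7 TPM in C57 kidneys, and Mal, a sorting protein of myelin and of kidney epithelium named after its values were seen, at 84.9 ± 42.6 TPM in Hap-I, against 233 ± 34.7 TPM in C57 kidneys. Pmp22, a protein of peripheral myelin and of epithelial junctions, stood at 7.61 ± 1.72 TPM in Hap-I, against 17.9 ± 0.748 TPM in C57 kidneys (log2 difference -1.15, adjusted p = 0.00111 in limma). Sox10, named after its values were seen, and Olig1 stayed at or below 0.132 TPM in every library of both groups.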

How the data were processed

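Poly(A) RNA of 24 libraries was measured by RNA-seq. The authors deposited TPM per gene, with GRCm38, kallisto and DESeq2 listed, without versions or roles, per the submitters' processing notes. TPM keeps no depth, so the depth of each library is unknown. Groups followed the labels. Values were fitted as log2(TPM + 1) with limma 3.58.1 in R 4.3.3, with a trended prior, for genes that reached 1 TPM in 4 or more libraries of the fit, two-sided with Benjamini-Hochberg adjustment and a threshold of 0.05. The 8 brain-like and 16 kidney libraries were fitted apart. The fits were tested on simulated data. No p is given for the members in the contrast that chose them. The members and lists were chosen with earlier results of these data known. Genes named are drawn from the 9 members, in each list up to 4 genes that passed and up to 3 others with the highest mean TPM, and the 8 genes most like the members. Exceptions are stated. P-values measure the spread between the labelled animals. Of 30153 gene identifiers, 29732 matched GENCODE M21. Promoter windows are from RefSeq. Some genes that this rule names are not reported here.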

Additional observations from a re-analysis of the deposited data

Results flagged for a closer look

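Of 46 sets of 4 libraries, 6 had a highest or lowest library far from the other 3, where chance gives about 1 in 20. Mobp stood at 735 TPM in adult library 3, beside 486 to 509 TPM in the other adult libraries. The summed mature oligodendrocyte list stood at 2246 TPM in adult library 2, beside 1280 to 1423 TPM in the other adult libraries. That list holds Enpp2, which choroid plexus also makes and whose wide adult range is given above. The part of Enpp2 in this sum was not tested. The microglia sum was 453.7 TPM in aged library 3, beside 434.9 to 437.5 TPM in the other aged libraries. The choroid plexus and ependyma sum was 964 TPM in aged library 4 and 5602 TPM in adult library 2. The striatal sum was 941 TPM in adult library 4.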

How the results depend on the processing

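Every member kept a higher mean in aged brain-like libraries under all 17 alternatives. The median of the 9 was between 0.56 and 0.82 and its excess over all genes between 0.45 and 0.66. Because that contrast chose the members, their direction was fixed in advance, and these alternatives add no support for it. The count of genes called by age without diet was 4, and it was 1 with a pseudocount of 0.1, 1 with no filter on low values, 65 with all 24 libraries in the fit and 1 to 5 when each library was left out in turn. List genes called numbered 0, and 6 with all 24 libraries. Those 6 lay at 0.497 TPM or less in every kidney library, where values near 0 add almost no spread, so that fit is no check of the brain-like comparison. For age on diet the members called numbered 0, and 1 with array weights. For Hap-I on diet against C57 the number was 2, and 1 after median-of-ratios rescaling and 1 after quantile normalization. Leaving out each library in turn called 0 members for age on diet, 0 for haplotype and 2 against C57. With the replicate number as a block, 0 members were called for age on diet and 0 for haplotype, while genes called numbered 30 against 4 and 17 against 10. Correlations of same-numbered libraries were 0.05 to 0.48 for age and -0.05 to 0.56 for haplotype, and the numbers were not taken to pair animals. Leaving out adult libraries 2 and 4 together and the Eif2s3y covariate were chosen after seeing the data. The unknown depth and 4 animals a group limit all tests. The cause of the other shifts was not tested.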
